A study of Mus musculus with 9 samples.

Results

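In all, 10 long noncoding RNA genes were examined in mouse CD4+ T cells: 8 hosts of small nucleolar RNAs (snoRNAs), Gas5, Snhg1, Snhg3, Snhg5, Snhg6, Snhg8, Snhg12 and Snhg15, and a pair of abundant nuclear RNAs, Malat1 and Neat1. They were chosen by name, as 10 of the 55487 genes measured, and all 10 were found and passed the filter on low values. The cells were CD4+ T cells from the spleens of wild type C57BL/6 mice, enriched with a negative selection kit. One group of 3 libraries was kept in medium, with a culture time that the labels do not give. The second group of 3 was activated for 24 h with anti-CD3 Abs at 3 µg/ml and anti-CD28 Abs at 2 µg/ml, which bind CD3 of the TCR and the costimulatory receptor CD28. The last 3 libraries came from cells that received the same Abs together with TRAIL at 10 µg/ml, a ligand from the TNF family, over the same 24 h. No group had TRAIL without Abs, so the comparisons do not cover TRAIL on resting cells. Nothing in the labels says whether replicates were separate animals or cultures, so p-values measure only the spread between these libraries.

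A snoRNA host gene is transcribed as a long RNA from whose introns snoRNAs are cut. The snoRNAs guide chemical modification or processing of ribosomal and other RNAs, C/D box snoRNAs by methylation and H/ACA box snoRNAs by pseudouridylation. The spliced host RNA that remains often carries stop codons early in short reading frames and is degraded by nonsense-mediated decay when it is translated, and several hosts begin with a pyrimidine tract like that of mRNAs for the translation machinery. Gas5 was named for its accumulation in growth-arrested cells. Malat1 collects in nuclear speckles, which hold splicing factors, and Neat1 is the RNA scaffold of paraspeckles.

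On GRCm38 the deposited table places Gas5 at chr1:161034422-161038539, Snhg6 at chr1:9941959-9944118, Snhg8 at chr3:123507552-123508404, Snhg12 at chr4:132308623-132311024 and Snhg3 at chr4:132348014-132353686. Snhg5 is at chr9:88495268-88523562, Snhg15 at chr11:6525591-6528779 and Snhg1 at chr19:8723475-8726443. Malat1 (chr19:5795690-5802672) and Neat1 (chr19:5824708-5845478) are neighbours on the same strand, and the longest transcript of each is a single exon that covers the whole gene. The Snhg5 locus in the table spans 28295 bases, whereas GENCODE M21 has it at chr9:88521050-88522929, so the transcripts behind its values may differ from those annotated there.

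The start regions of the hosts were read from RefSeq on GRCm38.p6, where 8 of the 10 genes, all but Snhg6 and Neat1, had an entry. Each window below shows 60 bases around an annotated start, and capitals mark the longest run of C and T on the transcribed strand that touches the 15 bases on either side of that start. The 5 windows with the longest runs are shown together with those of Snhg3 and Snhg15, whose runs are short.
Snhg1, chr19:8723457-8723516, plus strand: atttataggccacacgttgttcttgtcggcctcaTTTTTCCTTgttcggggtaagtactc
Snhg12, chr4:132308648-132308707, plus strand: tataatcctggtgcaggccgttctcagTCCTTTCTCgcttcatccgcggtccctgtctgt
Snhg8, chr3:123508307-123508366, minus strand: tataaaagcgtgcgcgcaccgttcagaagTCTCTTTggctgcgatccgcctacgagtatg
Snhg5, chr9:88522868-88522927, minus strand: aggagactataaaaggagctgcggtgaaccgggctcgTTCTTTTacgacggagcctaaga
Gas5, second annotated start, chr1:161035136-161035195, plus strand: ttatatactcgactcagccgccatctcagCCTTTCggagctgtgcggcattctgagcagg
Snhg3, chr4:132353657-132353716, minus strand: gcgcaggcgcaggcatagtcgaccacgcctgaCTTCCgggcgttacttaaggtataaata
Snhg15, chr11:6528731-6528790, minus strand: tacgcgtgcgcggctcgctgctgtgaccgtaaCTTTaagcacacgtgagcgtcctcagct

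A run of at least 7 such bases was found in 4 of the 8 host windows, those of Snhg1 and Snhg12 with 9 bases and of Snhg5 and Snhg8 with 7, and in 25.9% of 32851 RefSeq promoters. The E-box CACGTG, a sequence that reads the same on both strands, was found in the promoter of Snhg15 alone among these genes, and in 7.15% of all promoters, over 250 bases before to 50 after the start. These matches are descriptions of the letters and not of bound sites.

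Of 30 annotated snoRNA rows within the 8 hosts, 17 held the C/D box motifs TGATGA near the 5′ end and CTGA near the 3′ end, 7 ended in an ACA box and 6 held neither by this search. The snoRNAs with the highest rows in the table were Snora73a and Snora73b, H/ACA RNAs of Snhg3, and Snord87, a C/D RNA of Snhg6. They are given from GENCODE M21 on GRCm38, with the ACA box or the C and D boxes in capitals. The Snora73 copies agree at 198 of 205 bases, or 96.6%.
Snora73b, chr4:132352322-132352526, minus strand: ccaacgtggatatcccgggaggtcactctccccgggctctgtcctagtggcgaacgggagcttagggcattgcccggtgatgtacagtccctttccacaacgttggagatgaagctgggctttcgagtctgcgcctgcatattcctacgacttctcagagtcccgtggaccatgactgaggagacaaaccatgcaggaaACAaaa
Snora73a, chr4:132352775-132352979, minus strand: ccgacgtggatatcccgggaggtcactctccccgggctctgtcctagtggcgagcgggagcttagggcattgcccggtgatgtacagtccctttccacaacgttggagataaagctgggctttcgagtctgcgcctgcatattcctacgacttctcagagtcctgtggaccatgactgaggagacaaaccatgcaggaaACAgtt
Snord87, chr1:9942463-9942549, minus strand: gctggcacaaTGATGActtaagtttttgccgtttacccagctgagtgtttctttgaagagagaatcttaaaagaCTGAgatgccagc

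Levels were deposited as TPM, a length-scaled abundance, which divides the reads of a gene by its length and scales every library to the same total. The read depth behind each value is therefore unknown, and the error rests on 3 libraries a group. T cell markers were abundant in all groups, with summed levels of 5194 to 5324 TPM in medium, 4203 to 4623 in activated cells and 4919 to 5340 with TRAIL. The summed level of 10 B cell markers was 2387 to 2449 TPM in medium, 194 to 210.2 in activated cells and 998 to 1118 with TRAIL, and that of 15 myeloid markers was 2423 to 2672, 106 to 116 and 1792 to 2049 TPM. The 8 erythroid markers summed to 2145 to 2594 TPM in medium, 24.8 to 39.6 in activated cells and 621 to 670.3 with TRAIL, and the 9 markers of CD8 and NK cells to 375 to 436, 184 to 197 and 152 to 162. Mitochondrial genes took 9.33 to 10.8%, 5.65 to 5.98% and 9.06 to 11.0% of all TPM. In the comparison of activated cells with medium all 10 B cell, 15 myeloid and 8 erythroid markers fell, at the criteria given with the first comparison, where 19.5% of all genes tested fell. With TRAIL 9, 15 and 8 of them were called higher than in activated cells, where 16.6% of all genes were. Slc4a1, an erythroid membrane protein, was listed at 0.0001 TPM in all activated libraries, the value the table gives where no signal was found, while the B cell and myeloid markers were low but above it. Of the 9 CD8 and NK markers 5 fell with activation. With TRAIL against activated cells 3 were called higher and 1 lower, beside 30.9% of all genes called in either direction, and against medium 8 were called lower, where 2.13% of all genes were. Cd8a, a chain of the CD8 coreceptor, fell from 45.0 to 14.1 TPM with TRAIL against activated cells. These cell types also express many of the RNAs described here, and the part of the markers in the results below was not tested. In bulk samples fewer cells of a type and less RNA per cell cannot be told apart.

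Malat1 and Gas5 were the most abundant of the 10 genes by the mean of each group. In the first activated library Snhg1 (200.5 TPM) exceeded Malat1 (138 TPM). In medium they ranked at positions 1 and 2 of 9911 long noncoding RNA rows by mean TPM, with 503 ± 88.9 and 487 ± 103 TPM (SD, n = 3 here and below), levels that overlapped between libraries. Snhg1 followed with 151 ± 17.6 TPM, above every host other than Gas5 in all libraries. Snhg8 and Snhg5 overlapped at 84.3 ± 25.2 and 81.2 ± 17.5 TPM, and Snhg12 (56.7 to 61.8 TPM) lay above Snhg6 (30.6 to 53.9 TPM) without overlap. Snhg15, Snhg3 and Neat1 were lowest, at 21.9 ± 1.23, 20.8 ± 3.56 and 16.4 ± 3.55 TPM, each overlapping its neighbour. Together the 10 genes took 15.6% ± 0.782 of the TPM of all long noncoding RNA rows in medium, 18.0% ± 1.79 in activated cells and 21.5% ± 2.14 with TRAIL. Long noncoding RNA rows were taken by gene type in GENCODE M21. They include the chaperonin subunit gene Cct6a, with means of 230, 812 and 239 TPM in the 3 groups, so ranks and shares depend on this class.

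**Figure D1:**
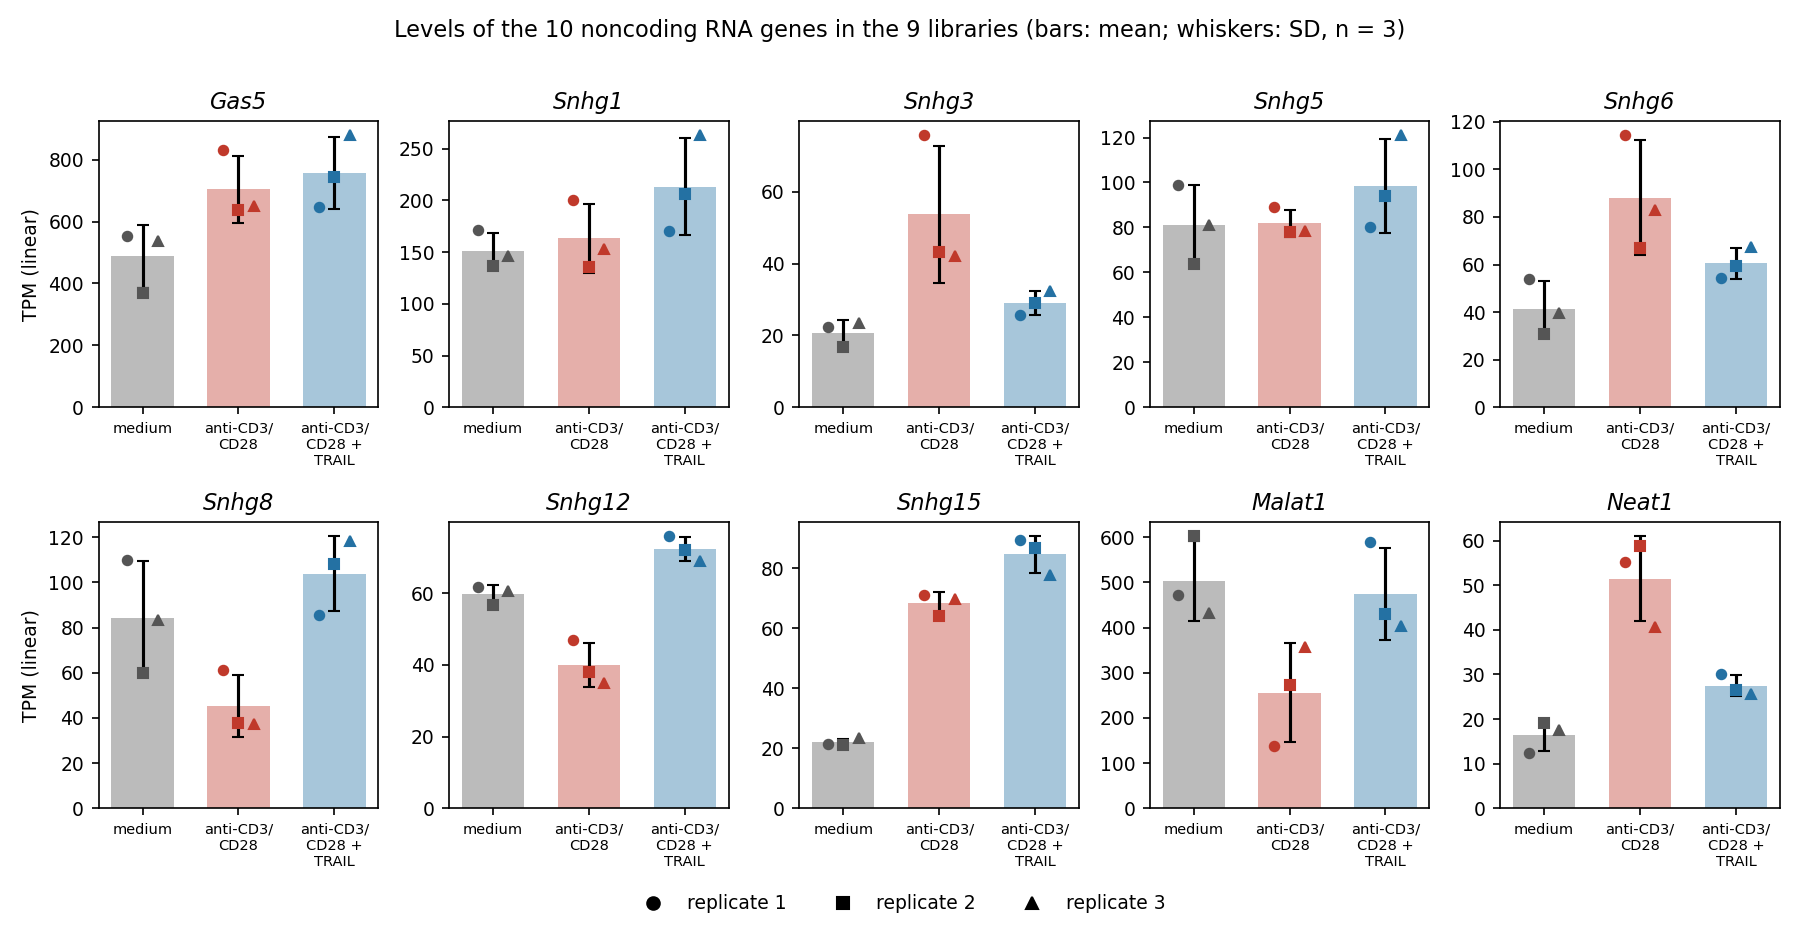
Level of each gene in TPM on a linear axis from 0, in medium, after anti-CD3/CD28 Abs and after anti-CD3/CD28 Abs with TRAIL. Bars are means, whiskers SD (n = 3) and points single libraries. Snhg15 stands at 20.97 to 23.3 TPM in medium and at 64.2 TPM or more in all 6 activated libraries, and Neat1 and Malat1 move in opposite directions.

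The first comparison asked what TCR and costimulatory activation did to these RNAs. Neat1, Snhg15, Snhg3 and Snhg6 rose and Malat1 fell in CD4+ T cells that received anti-CD3/CD28 Abs. Thus 5 of the 10 genes were called, at an adjusted p under 0.05 in limma with Benjamini-Hochberg adjustment and a fold change of at least 1 on the log2(TPM + 1) scale, against 31.9% of the 15536 genes tested. The adjusted p alone was passed by 8 of 10 genes, against 68.7% of all genes, and 7 of 10 genes had no overlap between the groups, against 72.6%. Among the 8 hosts, 3 were called higher, where 12.4% of all genes were. The median log2 fold change of the 10 was 0.32, and that of all genes tested was -0.15.

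Snhg15, which hosts the H/ACA RNA Snora9, had 21.5, 20.97 and 23.3 TPM in medium and 71.3, 64.2 and 69.8 TPM in activated cells. The replicates were tight and the groups far apart. Its mean was 3.12-fold higher, with a log2 fold change of 1.60 (SE 0.09, limma adjusted p = 1.8e-07).

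Snhg3 had 22.3, 16.7 and 23.4 TPM in medium and 75.8, 43.2 and 42.2 TPM in activated cells. All activated libraries were above all medium libraries, and the first activated library was well above its fellows. The log2 fold change was 1.29 (SE 0.22, limma adjusted p = 4.2e-04).

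Snhg6 showed a similar order, with 53.9, 30.6 and 39.7 TPM in medium and 114.5, 67.0 and 83.0 TPM in activated cells. The log2 fold change was 1.07 (SE 0.22, limma adjusted p = 0.00162), just past the fold threshold. It was 0.88 without the second medium library and 0.87 without the first activated library, so that either library decided the call. Rescaling without mitochondrial, immunoglobulin and hemoglobin rows gave 0.96, also under the threshold.

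The other hosts divided between small differences in both directions. Gas5 had 554.5, 368.9 and 538.2 TPM in medium and 829, 636 and 649 TPM in activated cells, without overlap. The log2 fold change of 0.54 (SE 0.18, limma adjusted p = 0.0212) was under the fold threshold, and with quantile normalization it was 0.34 with an adjusted p of 0.10 in limma. Without the second medium library the difference of Gas5 was 0.36 (limma adjusted p = 0.072), and without the first activated library 0.42 (limma adjusted p = 0.068). Snhg1, host of a series of C/D box snoRNAs, and Snhg5, host of Snord50a and Snord50b, gave log2 fold changes of 0.10 (95% interval -0.31 to 0.50) and 0.03 (-0.37 to 0.43), and the sign of both turned with quantile normalization.

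Snhg12 and Snhg8 were lower in activated cells, and neither reached the fold threshold. Snhg12 had 61.8, 56.7 and 60.6 TPM in medium and 46.8, 38.0 and 35.03 TPM in activated cells, a log2 fold change of -0.58 (SE 0.11, limma adjusted p = 0.00113) without overlap. Snhg8, host of Snora24, had 110.0, 59.7 and 83.2 TPM in medium and 61.2, 37.6 and 37.3 TPM in activated cells. The groups of Snhg8 overlapped, and the log2 fold change was -0.88 (SE 0.25, limma adjusted p = 0.00917). Without the second medium or the first activated library the difference of Snhg8 was -1.10 or -1.11, past the threshold.

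Neat1 had 12.4, 19.2 and 17.5 TPM in medium and 55.1, 58.7 and 40.7 TPM in activated cells. Its mean was 3.15-fold higher, with a log2 fold change of 1.60 (SE 0.18, limma adjusted p = 2.1e-05). Malat1 went the other way, with 473, 603 and 433 TPM in medium and 138, 273 and 357 TPM in activated cells. The groups of Malat1 did not overlap, the activated libraries spread 2.58-fold, and the log2 fold change was -1.06 (SE 0.30, limma adjusted p = 0.01). Malat1 stayed lower under every alternative run (-1.35 to -0.61), but it was under the fold threshold without the first activated library (-0.67), without the second medium library (-0.92) and with median-of-ratios scaling (-0.90), and its limma adjusted p was 0.10 without the filter on low values.

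**Figure D2:**
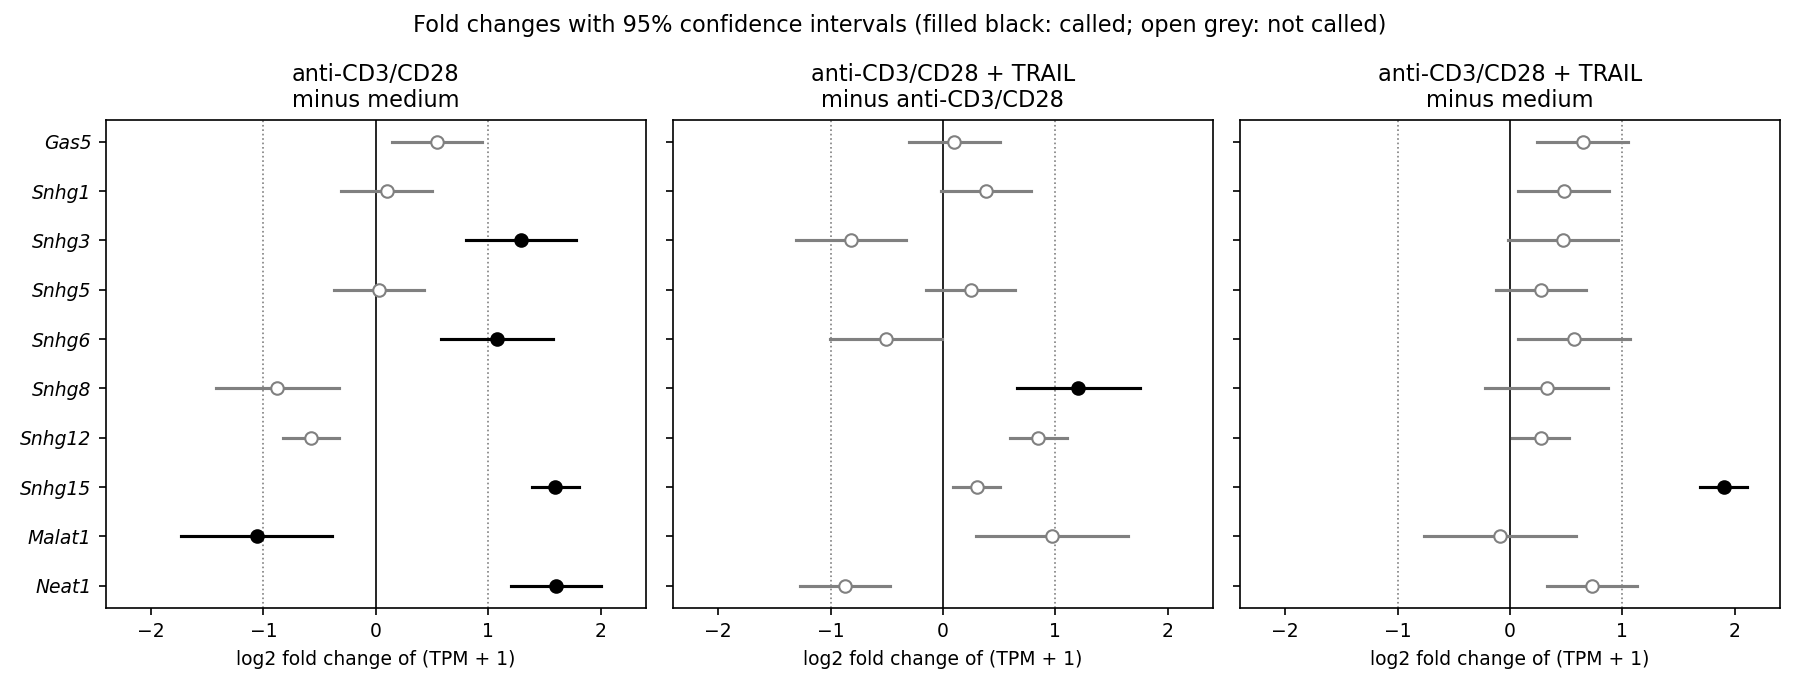
Log2 fold change of TPM + 1 for each gene in the 3 comparisons, with 95% confidence intervals from limma; the solid line marks no difference, and dotted lines mark the fold threshold. Filled black points were called, 5 genes for activated cells against medium, Snhg8 alone for TRAIL against activated cells and Snhg15 alone for TRAIL against medium.

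The next comparison asked what TRAIL changed in activated cells. Snhg8 rose in TRAIL-treated activated T cells, and it was the only 1 of the 10 genes called, where 30.9% of all genes tested were. A further 5 genes passed the adjusted p alone in limma, giving 6 of 10 against 67.1% of all genes: Snhg12, Malat1 and Snhg15 were higher with TRAIL, and Snhg3 and Neat1 lower. Also 6 of 10 genes had no overlap between the groups, against 70.4% of all genes. The median log2 difference of the 10 was 0.27, against 0.01 for all genes. This comparison shares its activated libraries with the one before, so the opposite signs of Snhg3, Snhg8, Snhg12, Malat1 and Neat1 are not independent of it.

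Snhg8 had 85.5, 108 and 118 TPM with TRAIL, against the 37.3 to 61.2 TPM of activated cells. The libraries did not overlap, and the mean was 2.29-fold higher, with a log2 fold change of 1.20 (SE 0.25, limma adjusted p = 0.00143). Snhg12 had 76.0, 72.0 and 69.1 TPM with TRAIL, all above the 46.8 TPM of the highest activated library. Its log2 fold change of 0.85 (SE 0.11, limma adjusted p = 7.8e-05) had the lowest p of the 10 genes, though the size was under the fold threshold.

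Malat1 had 590.2, 431 and 402 TPM with TRAIL, all above the 357 TPM of the highest activated library. The log2 difference was 0.97 (SE 0.30, limma adjusted p = 0.0157), and it depended on single libraries. It was 1.26 without the third activated library and 0.58 without the first, and 0.80 (limma adjusted p = 0.062) without the first TRAIL library. Without the filter on low values its limma adjusted p was 0.14. Neat1 had 30.1, 26.6 and 25.6 TPM, below every activated library and above every medium library. Its log2 difference from activated cells was -0.87 (SE 0.18, limma adjusted p = 0.00149), and -1.03 without the third activated library.

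Snhg3 had 25.6, 29.1 and 32.4 TPM with TRAIL, all lower than in activated cells (log2 difference -0.82, SE 0.22, limma adjusted p = 0.00714). Snhg6 had 54.4, 59.6 and 67.5 TPM and touched the activated range, with a log2 difference of -0.51 (limma adjusted p = 0.0676). Snhg15 did not share this direction. It had 89.5, 86.8 and 77.7 TPM with TRAIL, above all activated libraries by a small margin, with a log2 difference of 0.30 (SE 0.09, limma adjusted p = 0.0163). Without the second activated, the first TRAIL or the second TRAIL library the limma adjusted p of Snhg15 was 0.066, 0.061 and 0.059.

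Gas5, Snhg1 and Snhg5 overlapped between TRAIL-treated and activated cells. Their log2 differences were 0.10 (95% interval -0.30 to 0.50), 0.38 (-0.02 to 0.79) and 0.25 (-0.15 to 0.65), and that of Gas5 turned to -0.01 without the third TRAIL library. With TRAIL, Gas5 was at 645 to 879 TPM and was the first-ranked long noncoding RNA row by mean TPM.

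The last comparison set TRAIL-treated activated cells against medium. Snhg15 rose, and it was the only one of the 10 genes called, where 4.62% of all genes tested were called and 2.49% were called higher. Its mean was 3.86-fold higher and its log2 fold change 1.90 (SE 0.09, limma adjusted p = 8.8e-07). Snhg15 was called under every alternative run. Gas5 and Neat1 passed the adjusted p alone, with log2 differences of 0.65 (limma adjusted p = 0.0219) and 0.73 (limma adjusted p = 0.012), so that 3 of 10 genes passed it against 32.6% of all genes. For Gas5 the limma adjusted p was 0.06, 0.057 and 0.089 without the second medium, the second TRAIL or the third TRAIL library. In 6 of 10 genes the groups did not overlap, against 50.6% of all genes.

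All 8 hosts had positive differences from medium, from 0.27 upward. Snhg1 had 171, 206 and 263 TPM with TRAIL, against 137 to 171 TPM in medium, a log2 difference of 0.48 (95% interval 0.07 to 0.88, limma adjusted p = 0.0683). Snhg3 and Snhg6 did not overlap medium and had log2 differences from medium of 0.47 (95% interval -0.02 to 0.96) and 0.57 (0.07 to 1.07), and limma adjusted p-values of 0.125 and 0.077. Malat1 had a difference of -0.09 (-0.76 to 0.58), whose sign turned with median-of-ratios scaling, and Snhg8 and Snhg5 had 0.33 (-0.22 to 0.87) and 0.28 (-0.12 to 0.67). Snhg12 did not overlap medium, with a small difference of 0.27 (0.02 to 0.53, limma adjusted p = 0.0914). The median of the 10 was 0.47, against -0.18 for all genes. The all-gene median itself depended on the scaling: with median-of-ratios it was -0.02 here and -0.01 for activated cells against medium, and with quantile normalization -0.04 and 0.04.

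The ratio of the pair of nuclear RNAs within a library needs no scaling between libraries. Malat1 exceeded Neat1 31.4-fold ± 6.73 in medium, 5.31-fold ± 3.19 in activated cells and 17.2-fold ± 2.11 with TRAIL. The log2 ratio of Neat1 to Malat1 differed by 2.73 between activated cells and medium, by -1.87 between TRAIL-treated and activated cells, and by 0.86 between TRAIL-treated cells and medium. No libraries overlapped in any of the 3, and each exact two-sided permutation test gave p = 0.1, the smallest that 3 libraries against 3 allow. Neat1 is made in a short and a long form that share their 5′ end, and the gene-level values do not separate them.

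Set beside the start regions shown above, the 4 hosts with a pyrimidine run of at least 7 bases, Snhg1, Snhg5, Snhg8 and Snhg12, had log2 differences of -0.88 to 0.10 between activated cells and medium. The hosts with shorter runs, Gas5, Snhg3 and Snhg15, had 0.54 to 1.60. Between TRAIL-treated and activated cells the same 4 genes had 0.25 to 1.20 and the other 3 had -0.82 to 0.30. These are 7 genes set side by side without a test, after their values were known. Among 18 mRNAs known for such tracts, which encode elongation factors and other parts of the translation machinery, 4 rose and 0 fell in activated cells, where 12.4% of all genes rose and 19.5% fell. With TRAIL against activated cells 0 rose and 4 fell, where 16.6% of all genes rose and 14.3% fell. Their medians were 0.49 and -0.21, and the difference from all genes was not tested. Npm1, which encodes the nucleolar protein nucleophosmin, rose from 964 to 3309 TPM (log2 fold change 1.78, limma adjusted p = 1.0e-06). Nap1l1, of the same list, fell from 593 to 203 TPM with TRAIL against activated cells (-1.54, limma adjusted p = 1.1e-07).

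Libraries of one group differed along a shared direction. The first activated library had the highest level of 8 of 8 hosts and the lowest Malat1, and the second medium library had the lowest level of 8 of 8 hosts and the highest Malat1 and Neat1. With TRAIL, the first library had the lowest level of 6 of 8 hosts and the highest Malat1 and Neat1, while Snhg12 and Snhg15 were highest there. Libraries also differed in how levels varied with transcript length over the 9578 genes averaging 10 TPM or more. Per 10-fold longer transcript, the deviation from the group mean changed on the log2 scale by -0.07, 0.16 and -0.08 in the 3 medium libraries, by -0.34, 0.20 and 0.15 in the activated libraries and by 0.12, 0.01 and -0.13 in the TRAIL libraries. The first activated library was farthest from 0. The part of this spread in the results was not tested beyond the correction that follows. The longest annotated transcripts of the hosts span 581 bases (Snhg3) to 2728 bases (Snhg1), against 6983 for Malat1 and 20771 for Neat1.

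When a trend on length and GC content was removed from each library, an alternative added after seeing the data, the log2 fold change of Malat1 in activated cells was -0.61 (limma adjusted p = 0.028), under the fold threshold. That of Neat1 was 2.30 against medium and -1.45 between TRAIL-treated and activated cells, the latter then called. Snhg3, Snhg6 and Snhg15 remained called against medium, with 1.45, 1.20 and 1.68.

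**Figure D3:**
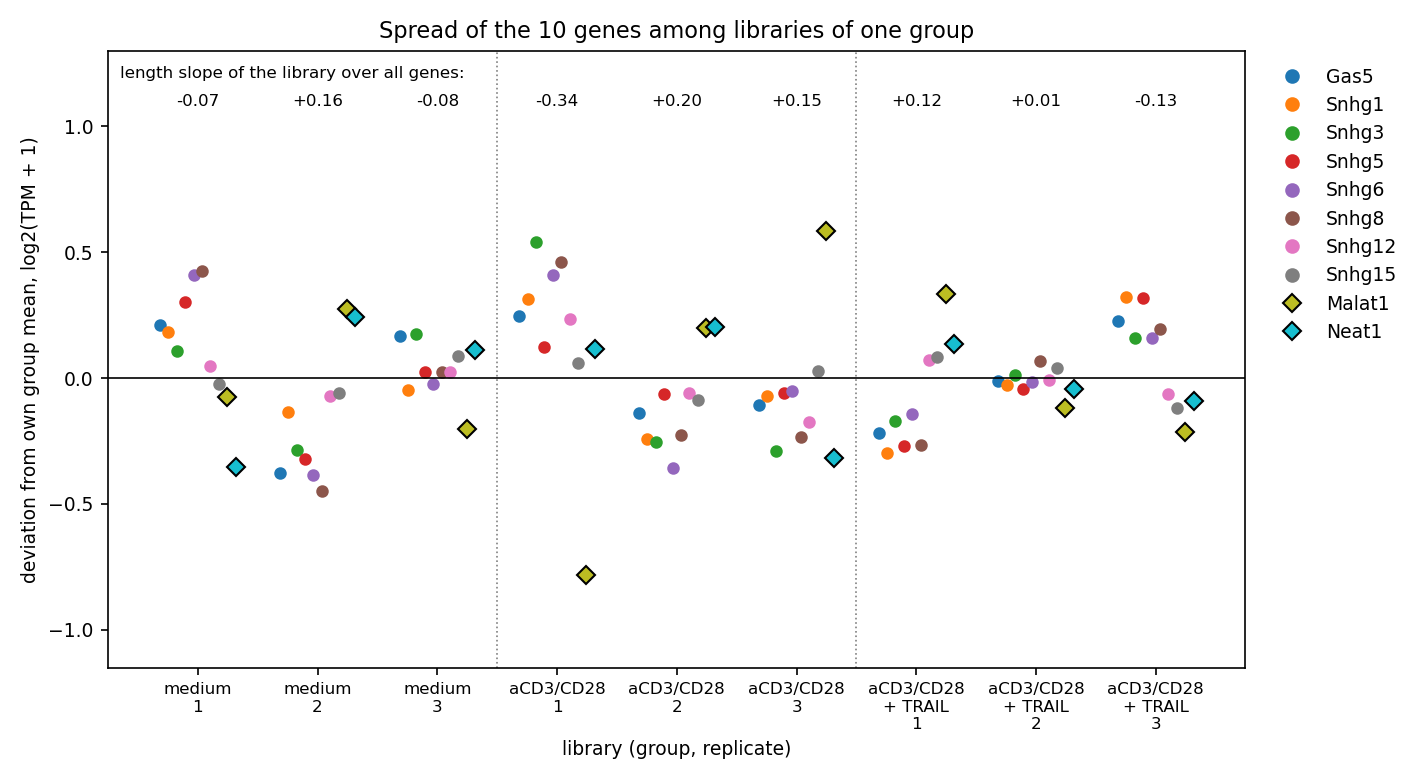
Deviation of each gene from its own group mean on the log2(TPM + 1) scale, by library; circles are hosts and diamonds Malat1 and Neat1, and the numbers at the top give the length slope of the library over the 9578 genes averaging 10 TPM or more. In the first activated library, with a slope of -0.34, all 8 hosts lie above 0 and Malat1 is lowest.

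Overlapping genes limit some of these values. Rcc1, which encodes a chromatin-bound exchange factor for the GTPase Ran, shares its strand and 5592 bases with Snhg3, so reads between them may have been divided arbitrarily. Rcc1 had 17.5 to 24.2 TPM in medium, 71.0 to 76.9 in activated cells and 15.8 to 18.6 with TRAIL, with log2 fold changes of 1.84 and -2.07, both called. Gm17300, on the opposite strand within Snhg3, was listed at 0.0001 TPM in 8 libraries and at 7.34 TPM in the first activated library, the one with the highest Snhg3. Zbtb37 overlaps Gas5 by 428 bases and Mcmdc2 overlaps Snhg6 by 127 bases on the opposite strand, and whether counting used strand is not given in the sources used here.

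Slc3a2, a subunit of amino acid transporters whose gene lies next to Snhg1 on the opposite strand, rose in activated cells from 95.9 to 485 TPM, while Snhg1 had 151 and 163 TPM. Trnau1ap, next to Snhg12 and also on the opposite strand, had 52.5, 96.2 and 40.9 TPM in the 3 groups, where Snhg12 had 59.7, 39.9 and 72.3 TPM. By their means, the order of the groups was thus reversed between Snhg12 and Trnau1ap.

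Of the 30 snoRNA rows within the hosts, 6 passed the filter on low values. The libraries were prepared with an mRNA kit, mature snoRNAs have no poly(A) tail, and rows this short may also hold reads from the host precursor, so the values are not snoRNA levels. Snora73b had 9.68, 8.54 and 5.09 TPM in medium, 38.3, 26.4 and 25.0 in activated cells and 18.0, 18.0 and 18.4 with TRAIL. All groups were apart. It rose 1.83 on the log2 scale with activation (SE 0.22, limma adjusted p = 3.0e-05), and it was called higher with TRAIL than in medium, by 1.16 (limma adjusted p = 0.0033), where its host Snhg3 was not.

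Snora73a had means of 2.22, 7.32 and 4.88 TPM in the 3 groups and rose by 1.34 with activation (limma adjusted p = 1.4e-04). With so few differing bases, reads of the Snora73 copies may have been divided arbitrarily. Snord87 of Snhg6 had 12.8 ± 1.87, 18.0 ± 5.22 and 13.9 ± 1.64 TPM, with overlap in every comparison, and a log2 difference of 0.43 with activation (limma adjusted p = 0.0643). Snora73b and Snord87 lie outside all annotated exons of their hosts. Both Snora73 rows also lie within Rcc1 on the same strand. The exons of Rcc1 were not compared with them, so these rows may also hold reads of Rcc1 RNA. The other rows that passed, Gm26224 and Gm22489 in Gas5 and Gm24452 in Snhg1, reached at most 3.83 TPM. Gm26224 was lower with activation (means 3.02 and 1.47 TPM, log2 difference -0.71, limma adjusted p = 0.00701), the opposite direction to Gas5. With TRAIL it was higher than in activated cells (0.52, limma adjusted p = 0.0336). Gm22489 and Gm24452 overlapped between the groups in every comparison. Of the small RNA rows of another type, Gm27505 within Neat1 had means of 0.304, 1.41 and 0.297 TPM and Gm27694 within Malat1 1.54, 0.632 and 1.65 TPM, each in the order of activated cells against medium that its host showed, and none of these 5 rows was called.

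**Figure D4:**
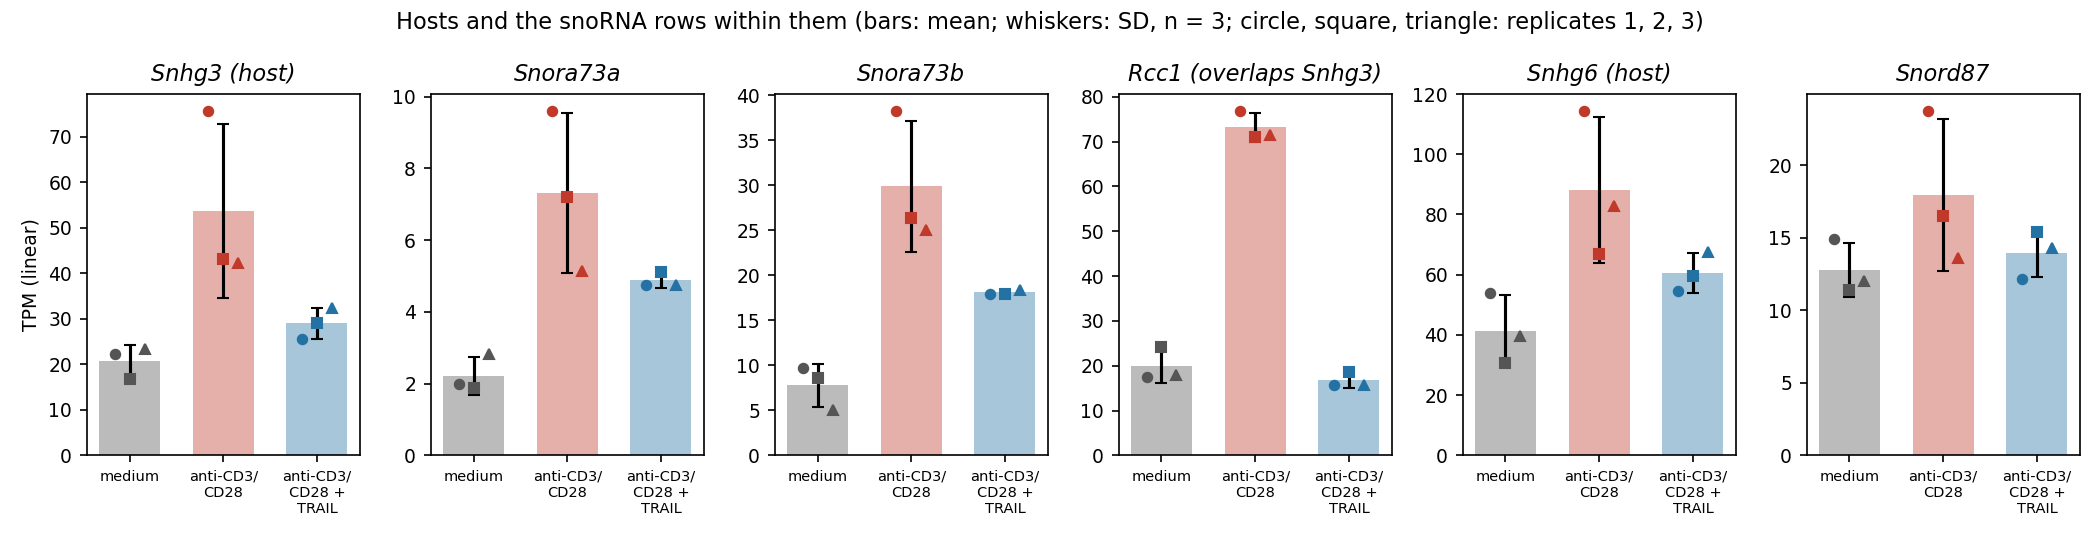
Levels in TPM (linear axes from 0) of Snhg3, the snoRNA rows Snora73a and Snora73b within it, the overlapping gene Rcc1, and Snhg6 with the snoRNA row Snord87; bars are means, whiskers SD (n = 3), points libraries. Snora73b with TRAIL (18.0 to 18.4 TPM) lies above medium, whereas Rcc1 with TRAIL (15.8 to 18.6 TPM) overlaps medium.

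The proteins that bind and assemble snoRNAs were compared with the hosts. Of 19 such genes, 15 rose and 0 fell in activated cells, with a median log2 fold change of 1.49, where 12.4% of all genes rose. With TRAIL against activated cells 16 fell and 0 rose, with a median of -1.63, where 14.3% of all genes fell. Gar1, an H/ACA core protein, rose from 33.6 to 203 TPM (log2 fold change 2.57, limma adjusted p = 1.1e-08) and fell to 28.9 TPM with TRAIL (log2 fold change -2.78, limma adjusted p = 8.4e-09). Of the 8 host RNAs described here, 3 rose with activation and 0 fell with TRAIL against activated cells. Between TRAIL-treated cells and medium 0 of the 19 protein genes were called, by limma with both criteria, where 4.62% of all genes were, and their median was -0.13.

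Of 33 protein-coding snoRNA hosts, 11 rose and 1 fell in activated cells (median 0.64), and 1 rose and 8 fell with TRAIL (median -0.28), beside medians of 0.32 and 0.27 for the 8 host RNAs, a difference that was not tested. Of all genes 12.4% rose and 19.5% fell in activated cells, and 16.6% rose and 14.3% fell with TRAIL. The list was not tested against them. Ncl, which encodes nucleolin, rose from 219 to 1120 TPM (log2 fold change 2.35, limma adjusted p = 4.0e-09). Eif4a2, a translation initiation helicase, was the 1 that fell, from 1586 to 519 TPM (log2 fold change -1.60, limma adjusted p = 4.1e-07), and with TRAIL it was called higher than in activated cells, at 1201 TPM (log2 fold change 1.21). Hspa9, a mitochondrial chaperone, fell from 671 to 157 TPM with TRAIL (log2 fold change -2.09, limma adjusted p = 1.6e-08).

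Other long noncoding snoRNA hosts gave 10 tested rows from 9 gene symbols, Snhg4 being listed under a pair of identifiers. Of the rows, 3 rose and 1 fell with activation (median 0.58), 2 fell with TRAIL against activated cells, and 0 were called with TRAIL against medium in limma, where 4.62% of all genes were. Of all genes 12.4% rose and 19.5% fell with activation and 14.3% fell with TRAIL against activated cells, and the list was not tested against them. The larger Snhg4 row rose from 11.3 to 66.8 TPM (log2 fold change 2.47, limma adjusted p = 2.9e-08) and fell to 17.0 TPM with TRAIL (-1.91, limma adjusted p = 2.1e-07). The rise of the larger Snhg4 row exceeded that of any of the 8 hosts. The smaller Snhg4 row had means of 4.62, 7.12 and 6.13 TPM in the 3 groups. Its activated libraries (3.14 to 9.43 TPM) overlapped medium (3.74 to 5.59 TPM).

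Proteins that share nuclear bodies with Neat1 and Malat1 were read against all genes, of which 12.4% rose and 19.5% fell in activated cells against medium, and 16.6% rose and 14.3% fell with TRAIL against activated cells. Of 20 paraspeckle proteins, 3 rose and 1 fell in activated cells (median 0.41), and 1 rose and 5 fell with TRAIL (median -0.47). Hnrnpa1, an RNA-binding splicing regulator, rose from 518 to 1521 TPM (log2 fold change 1.55, limma adjusted p = 8.3e-08), and Hnrnph1, another such regulator, fell from 947 to 434 TPM (-1.13, limma adjusted p = 1.6e-06). Of 21 nuclear speckle and SR protein genes, 0 rose and 3 fell in activated cells (median -0.08), and 3 rose with TRAIL (median 0.03). Neither list was tested against all genes. Clk1, a kinase of SR proteins, fell from 712 to 177 TPM with activation (log2 fold change -2.00, limma adjusted p = 7.9e-07) and rose to 1452 TPM with TRAIL (3.04, limma adjusted p = 4.3e-08), which was also called higher than in medium (1.04, limma adjusted p = 7.2e-04, and 0.90 without the second medium library, under the fold threshold).

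Nonsense-mediated decay factors, which act on many host RNAs, gave 4 that rose and 1 that fell of 16 in activated cells (median -0.05) and 0 that rose and 3 that fell with TRAIL (median -0.21). Of all genes 12.4% rose and 19.5% fell in activated cells, and 16.6% rose and 14.3% fell with TRAIL. The list was not tested against them. Rbm8a, a protein of the exon junction complex, rose from 34.7 to 93.1 TPM (log2 fold change 1.40, limma adjusted p = 2.1e-07), and Smg1, the kinase of the decay factor Upf1, fell from 112 to 58.9 TPM (-1.03, limma adjusted p = 0.012, and -0.60 without the first activated library, under the fold threshold). Magohb, another exon junction protein, fell from 26.1 to 7.48 TPM with TRAIL (-1.64).

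Genes with the most similar pattern were found by the root mean square distance of log2(TPM + 1), centred per gene, over the 9 libraries and the 9578 genes averaging 10 TPM or more. For Snhg15 they were Pim3, a serine/threonine kinase, at a distance of 0.13, and Cebpb, a transcription factor, at 0.20. Pim3 had 19.0 ± 0.660, 57.9 ± 6.57 and 78.0 ± 8.28 TPM in the 3 groups. For Neat1 they were Spsb1 (0.17) and Osm, the cytokine oncostatin M (0.20), and for Malat1 they were Zfp236 (0.11) and Mycbp2 (0.12), of which Mycbp2 had 104 ± 7.89, 51.2 ± 18.3 and 101 ± 13.5 TPM.

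The nearest to Gas5 were Gm10709 and Rpsa-ps7 (0.07 both), to Snhg1 Clp1 (0.10) and Rpl26 (0.11), and to Snhg3 Rps12-ps9 and Rpl15-ps2 (0.10 both). For Snhg5 they were Calm2 and Rps3a1 (0.09 and 0.10), for Snhg6 Sap30 and Imp3 (0.14 both), for Snhg8 Gm6252 and Rps7 (0.14 and 0.16), and for Snhg12 Snx5 and Crebzf (0.08 both). Rows named as pseudogenes may hold reads of their parent genes. Among the 10 genes themselves, the closest pairs were Snhg1 with Snhg5 (0.14) and Snhg3 with Snhg6 (0.20). The distances describe these libraries, which share the spread along transcript length given above.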

How the data were processed

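RNA-seq was measured in 9 libraries of splenic CD4+ T cells, grouped by their labels. The authors trimmed reads with Trimmomatic 0.36 and aligned them with HISAT2 2.1.0. The submitters' notes also list StringTie 2.1.2 and DESeq2, and the program behind the values is not given in the sources used here. The paper names GRCm38, and the submitters' notes name a human build, whereas the loci in the table matched mouse GRCm38 (99.3% of the 55227 genes found in GENCODE M21). The table the authors deposited holds a TPM value per library for 55487 genes, and the sums of the 9 libraries average 1000000 after rounding. TPM keeps no read totals, so depth and counting error are unknown, and every value is relative to the rest of its library.

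The 15536 genes that reached 1 TPM in 3 or more libraries were fitted together on log2(TPM + 1) with limma 3.58.1 under R 4.3.3, using eBayes with its trend option. All 9 libraries entered the fit, and the main design had no replicate block. A gene was called when its p, adjusted by Benjamini-Hochberg over every gene tested, was below 0.05 and its log2 fold change was 1 or more in either direction. The ratio of Neat1 to Malat1 was tested by an exact permutation test (scipy 1.17.1). The fit was tested on simulated data. Tables used pandas 2.3.3 in Python 3.11.15, and plots matplotlib 3.10.9.

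Named were the 10 genes, small RNA rows within them that passed the filter, the 2 genes nearest in pattern to each, and, per list and comparison, the called gene with the largest rise and the largest fall where either group averaged 10 TPM or more. Genes that overlap or adjoin the 10 were added by position, after values were seen. The members, lists and tests were chosen with earlier results of these data known. Alternatives varied the pseudocount, filter, scaling, variance trend, libraries in the fit, block and fold threshold, and left out each library in turn. The length and GC correction (splines with 4 degrees of freedom each, known for 99.8% of tested genes) and the fold changes of named list genes without single libraries were added after seeing the data. Not every marker gene counted in the sums is named.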

Additional observations from a re-analysis of the deposited data

How the results depend on the processing

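Depth was unknown, so no result could be read against counting error. Of the 10 genes, 5 were called for activated cells against medium, 1 for TRAIL against activated cells and 1 for TRAIL against medium. Leaving out each library in turn gave 4 to 5, 1 to 3 and 1 to 1. Without the fold threshold the counts were 8, 6 and 3. For TRAIL against activated cells, quantile normalization and rescaling without mitochondrial, immunoglobulin and hemoglobin rows each gave 2 (Snhg8 and Malat1), and the length and GC correction gave 2 (Snhg8 and Neat1). The replicate block left the counts of the 10 genes at 5, 1 and 1. Deviations of same-numbered libraries correlated by -0.31 to 0.29, and those of differently numbered libraries by -0.38 to 0.29. Libraries also differed in length slope, so these correlations cannot settle whether the numbers paired the samples. With the block 4960, 4802 and 714 of all genes were called, against 4959, 4800 and 718.

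Signs turned only for differences that were not called. Snhg5 in activated cells against medium was -0.0036 with quantile normalization and -0.084 with rescaling, and -0.13 to 0.18 when single libraries were left out. Snhg1 was -0.052 and -0.019 with the same settings, and -0.061 to 0.22 when single libraries were left out. Gas5 for TRAIL against activated cells was -0.013 to 0.22 when single libraries were left out. Malat1 for TRAIL against medium was 0.094 with median-of-ratios scaling, 0.062 with the length and GC correction, and -0.26 to 0.048 when single libraries were left out. In all, 570 of the recomputed fold changes kept their direction and their side of the call, 12 turned, 10 became calls and 8 lost the call. The lost calls were of Malat1 and Snhg6 in activated cells, and for Malat1 the adjusted p was 0.10 in limma without the filter. Among differences under the fold threshold, the limma adjusted p without the filter was 0.14 for Gas5 and 0.092 for Snhg8 in activated cells against medium, 0.073 for Snhg3 with TRAIL against activated cells, and 0.16 for Gas5 and 0.095 for Neat1 with TRAIL against medium. The cause of these changes was not tested.

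The log2 ratio of Neat1 to Malat1 differed by 2.28 to 3.18, -2.32 to -1.42 and 0.71 to 1.02 when single libraries were left out. Over all genes, a pseudocount of 5 gave 2946, 2883 and 332 calls, and a pseudocount of 0.1 gave 1167 for TRAIL against medium. Calls for activated cells against medium were 1926 higher and 3033 lower, and with quantile normalization 2434 and 2240. For TRAIL against medium they were 387 and 331, with median-of-ratios scaling 523 and 186, with quantile normalization 526 and 219, and with the length and GC correction 461 and 230.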

Other observations

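Other abundant long noncoding RNAs, of which 15 were tested, moved in both directions: 3 rose and 5 fell in activated cells, 4 rose and 3 fell with TRAIL against activated cells, and 2 rose and 1 fell with TRAIL against medium. Of all genes 12.4% rose and 19.5% fell, 16.6% rose and 14.3% fell, and 2.49% rose and 2.13% fell in these comparisons, and the difference was not tested. Mir155hg, the host RNA of the microRNA miR-155, rose from 2.15 to 77.4 TPM with activation (log2 fold change 4.64, limma adjusted p = 3.0e-09) and fell to 6.96 TPM with TRAIL (-3.31, limma adjusted p = 3.3e-08), a larger change than in any of the 10 genes above. Dleu2, the host RNA of miR-15a and miR-16-1, fell from 24.5 to 7.37 TPM with activation (-1.61, limma adjusted p = 6.8e-07). Oip5os1, also called cyrano, fell from 56.5 TPM in medium to 27.3 TPM with TRAIL (-1.03, limma adjusted p = 4.4e-04, and -0.96 without the third TRAIL library, under the fold threshold). Rn7sk, the RNA that holds the elongation factor P-TEFb, rose from 10.8 to 60.1 TPM with TRAIL against activated cells (2.35, limma adjusted p = 8.0e-05), and Rmrp, the RNA of the ribonuclease MRP, had 4.21, 2.83 and 4.52 TPM in medium and 9.57, 6.37 and 27.9 TPM with TRAIL. The call of Rmrp (1.45, limma adjusted p = 0.03) rested on the third TRAIL library, without which the log2 difference was 0.88 and the TRAIL mean 7.97 TPM. Neither Rn7sk nor Rmrp has a poly(A) tail, and the libraries were prepared with an mRNA kit.

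Over all 876 long noncoding RNA rows tested, 71 rose and 244 fell in activated cells, 196 rose and 76 fell with TRAIL against activated cells, and 18 rose and 24 fell with TRAIL against medium. The called rows made up 36.0%, 31.1% and 4.79% of them, beside 31.9%, 30.9% and 4.62% of all genes. These rows were taken by gene type and include the chaperonin subunit gene Cct6a. Of the 16 genes used to follow TCR activation, 7 rose and 3 fell with activation, and 3 rose and 8 fell with TRAIL against activated cells, beside the same 31.9% and 30.9% of all genes called. Gzmb, which encodes granzyme B, had 22.8, 1766 and 23.4 TPM in the 3 groups, and S1pr1, a receptor that guides exit from lymphoid tissue, had 358, 35.1 and 442 TPM. Irf4, a transcription factor induced by TCR signalling, was called higher with TRAIL than in medium (183 against 57.2 TPM, log2 fold change 1.66, limma adjusted p = 2.7e-05).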
